A study of Mus musculus with 24 samples.

Results

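The comparison described here set female mouse astrocytes expressing p53 R172H against female astrocytes of the same culture expressing p53 Y217C. It was read across every gene of the deposited table. Its members were the 6 libraries that the labels give to these 2 lines, 3 replicates each, of the 24 libraries of 8 lines in the series, and 14427 genes were tested. The series profiled polyA RNA from cortical astrocytes of postnatal day 1 C57BL/6 mice at passages 10 to 15, with 4 lines made in a female culture and the same 4 in a male culture. It asks whether mutant p53 acts differently by sex and by mutation.

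All lines started from Trp53 f/- astrocytes, which carry 1 floxed and 1 deleted Trp53 allele, and pups of a sex were pooled into 1 culture. For both lines compared, a retrovirus drove a mutant Trp53 cDNA with eGFP from the viral promoter, eGFP-positive cells were sorted, and a lentivirus carrying Cre and a puromycin resistance gene then removed the floxed allele under puromycin. The 2 lines therefore shared the parental culture, the deleted endogenous locus, the sort and the selection, and differed by label in the amino acid change alone. The p53 knockout (KO) line received the Cre lentivirus only, with no p53 retrovirus and no eGFP sort, and the Y202C line was made like the lines compared. The sources describe 1 line per mutation and sex, and the study states separate thaws and platings for its cell culture work. The p-values thus measure the spread within a line, and the mutation and the making of the 1 line that carries it cannot be told apart.

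Trp53 encodes p53, a transcription factor that halts the cell cycle or starts apoptosis after damage. Most tumour mutations are single amino acid changes in its DNA-binding domain: R172H belongs to a class that unfolds the zinc-binding region, and Y217C opens a crevice that lowers the stability of the fold. Such proteins lose most target gene activation, build up in the cell, and in many settings gain effects on matrix, growth factor and inflammatory genes. Interferon-stimulated genes form a separate program, in which STAT2 and IRF9, within a larger complex, bind GAAA repeats in promoters of antiviral genes.

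The 6 libraries held 67030941 to 136503809 counted reads, so that 1 CPM (a read count scaled to the library's size with edgeR's TMM factors) stood for at least 67.7 reads. Log2 counts of the replicates of a line correlated at 0.993 or more, and no pair of libraries agreed within counting noise. A log2 fold change is R172H over Y217C with its standard error, a gene was called at an adjusted p of 0.05 or less by edgeR's quasi-likelihood test with Benjamini-Hochberg adjustment over all 14427 genes, and a gene with at most 3 counts in each library of a line is said to be at the floor there.

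Trp53 itself was read in every library and was higher in the Y217C line. It stood at 1889.7, 2020.5 and 1957 CPM in R172H replicates 1 to 3 and at 3546, 3869.8 and 3710.3 CPM in Y217C replicates 1 to 3. The ranges did not overlap, and the log2 fold change was -0.92 ± 0.05 (adjusted p = 2.19e-13). The KO line held 48.9 ± 2.72 CPM and the Y202C line 593 ± 18 CPM (SD, n = 3), so both lines compared carried far more Trp53 RNA than the KO line. Retroviral and chromosomal transcripts are counted together, and the missense codons cannot be seen in gene counts, so this gene checks that a transgene is present but not which one.

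Of 9 tested p53 partners and regulators, Trp53 included, 2 were higher and 6 lower in R172H, against 32.4% of all genes called higher and 33.8% called lower. Mdm2, the ubiquitin ligase that degrades p53, was lower by 0.38 ± 0.06 on the log2 scale, and Mdm4, its partner inhibitor, was higher by 0.36 ± 0.09. Trp63, a p53 relative of epithelial stem cells, stood at 3.86, 3.57 and 3.60 CPM in R172H and 1.17, 0.839 and 0.384 CPM in Y217C, a log2 fold change of 2.18 ± 0.32 from low levels. Cdkn2a, whose product ARF blocks Mdm2, did not pass the threshold, at 0.08 ± 0.11 (adjusted p = 0.555). Direct targets of wild-type p53 split by gene: 12 of 33 were called higher and 14 lower. The arrest gene Cdkn1a was lower (-0.38 ± 0.08), as were the proapoptotic Pmaip1 (-2.34 ± 0.12) and the arrest gene Rprm (-1.78 ± 0.15), while the death receptor gene Fas (1.28 ± 0.12), Perp (2.03 ± 0.13) and the sulfatase gene Sulf2 (1.42 ± 0.09) were higher. For Bax, a pore-forming death effector, the value was -0.01 ± 0.07 (adjusted p = 0.87).

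Across the genome, most genes differed between the lines, mostly by little. At the threshold 9550 of 14427 genes were called (66.2%), 4670 higher in R172H (32.4%) and 4880 lower (33.8%). The median absolute log2 fold change was 0.36 over all genes and 0.53 over the called ones. Large differences lay more often on the R172H side. Past 2-fold, 1563 genes were higher in R172H (10.8%) and 691 lower (4.79%), past 8-fold the counts were 488 and 81, and past 32-fold they were 208 and 16. The numbers with no overlap between the 3 and 3 libraries came to 9962 (69.1%). Calls depended on how strongly a gene was expressed: with the genes cut into 3 equal groups by mean expression, 56.5% were called in the lowest group, 69.5% in the middle and 72.6% in the highest. Protein-coding genes were called in 69.9% of 12691 cases and genes of other biotypes in 38.8% of 1659.

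**Figure D1:**
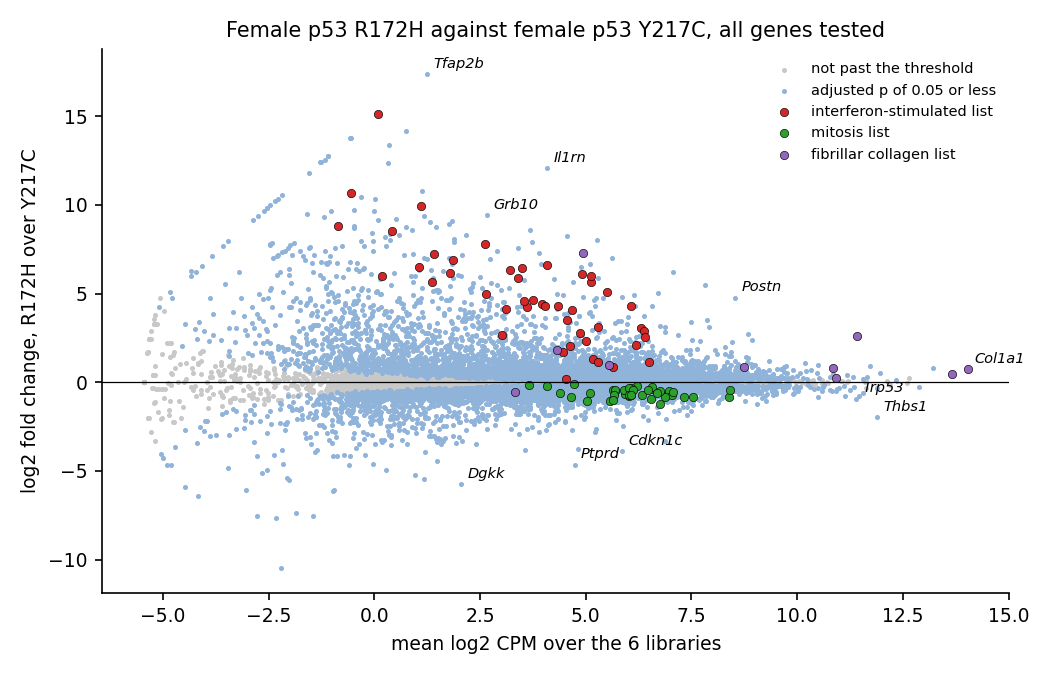
Each point is 1 of the 14427 genes tested, with mean log2 CPM over the 6 libraries across and log2 fold change (R172H over Y217C) up; pale blue points passed the threshold and the coloured points are members of gene lists. The cloud reaches farther up than down, 1563 genes past 2-fold against 691, and fitted values of genes at 0 in a line, such as Tfap2b, depend on the prior count and are no bound.

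A group of genes had RNA in the R172H line and none above the floor in the Y217C line. With a mean of at least 5 CPM in the other line, 19 genes were at the floor in all 3 Y217C libraries, and 0 genes were at the floor in all 3 R172H libraries; at 1 CPM the counts were 46 and 2. Tfap2b, a transcription factor of neural crest and kidney, stood at 247, 253 and 231 CPM in R172H and at 0 in each Y217C library, at least 6217-fold higher against a floor of 3 counts per library. The KO line held 23.5 ± 1.39 CPM of it and the Y202C line 15.2 ± 2.67 CPM, so among the female lines the Y217C line alone was at the floor. Meox2, a homeobox factor of muscle and vessels, stood at 21.1, 21.6 and 18.2 CPM against 0 in each Y217C library, at least 517-fold, and was at the floor in the KO line as well. Of the 19 genes, 7 were at the floor in the female KO line too, and 9 were at the floor in the male R172H line.

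Others of the 19 encode receptors, channels and secreted proteins. Agtr2, an angiotensin receptor gene on the X chromosome, was read at 21.3, 20.2 and 17.6 CPM in R172H and 0 in each Y217C library, at least 503-fold. Kcne4, a potassium channel subunit gene, stood at 54.8, 51.3 and 52 CPM, at least 1343-fold, and Sostdc1, which encodes a secreted BMP and Wnt antagonist, stood at 8.86, 8.69 and 8.25 CPM, at least 219-fold. Brinp3 (at least 1548-fold), Psd4 (518-fold), Pcp4l1 (198-fold), Cnmd (197-fold), Myh2 (250.4-fold) and the uncharacterised AW551984 (2689.6-fold) followed the same pattern, with each fold a lower bound. Brinp3 and Myh2 overlap genes on the other strand, and the counting is not stated to use strand, so their reads cannot be told from those of Gm29514 and 9430073C21Rik. The same limit holds for other genes named here that overlap a gene on the other strand, namely Aldh1l1, Axin2, Bmp4, Ccnd1, Cdkn1a, Cxcl10, Fn1, Id4, Igf2, Irf7, Lef1, Mest, Nlrc5, Pdgfra, Sfrp2, Sulf2, Tgfa, Timp3, Usp18, Wnt5a, Wnt7b and Zic1. The 19 also held the antiviral genes Oas1a, Oas1g, Oas3 and Slfn3, the bile acid transporter gene Slc10a6, the homeobox gene Vax2 and Lgi2.

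**Figure D2:**
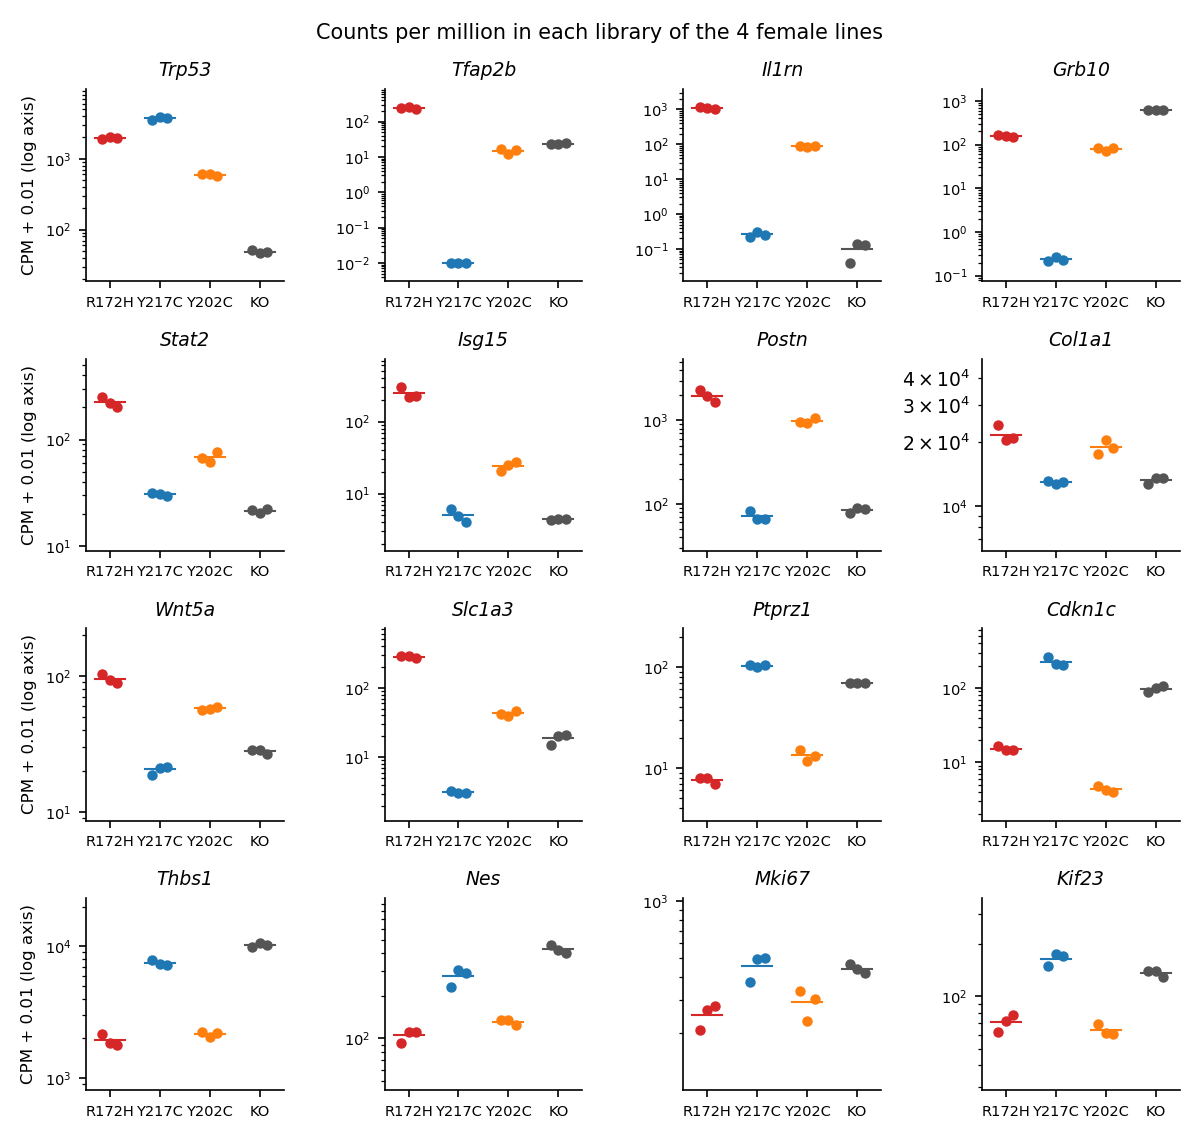
Each panel is 1 gene, with CPM plus 0.01 on a log axis, and each point is 1 library of the female KO, R172H, Y202C or Y217C line, 3 libraries per line. Tfap2b, Il1rn, Grb10 and Slc1a3 lie higher in all 3 R172H libraries than in any Y217C library, while Ptprz1, Cdkn1c, Thbs1, Nes, Mki67 and Kif23 lie lower.

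Among protein-coding genes at 5 CPM or more in the higher line, the 12 largest falls were smaller by fitted value than the 12 largest rises. None of the 12 falls was at the floor in R172H. Fitted values of rises at the floor in Y217C, such as Tfap2b and Agtr2, depend on the prior count, so their sizes cannot be set against those of the falls. Dgkk, a diacylglycerol kinase gene on the X chromosome, stood at 0.572, 0.586 and 0.511 CPM in R172H and 26.6, 32.1 and 31.3 CPM in Y217C, a log2 fold change of -5.76 ± 0.13 (adjusted p = 2.11e-21). Nptx1, which encodes a secreted pentraxin of synapses, fell from 14.8, 15.7 and 13.6 CPM in Y217C to 0.254, 0.288 and 0.45 CPM in R172H, a log2 fold change of -5.43 ± 0.19. Both sets of libraries lay far apart for each gene, and the KO line (31.6 ± 2.72 and 18.9 ± 0.879 CPM) lay on the Y217C side. The receptor phosphatase genes Ptprd (-4.64 ± 0.11), Ptprq (-5.23 ± 0.19) and Ptprz1 (-3.77 ± 0.11) were lower in R172H, as were Myocd, a smooth muscle coactivator (-4.45 ± 0.20), Crmp1, a growth cone protein (-3.83 ± 0.10), the splicing factor Rbfox1 (-3.95 ± 0.22), the protease receptor F2rl1 (-3.49 ± 0.15), Cmah, a sialic acid hydroxylase (-3.46 ± 0.21), and Pbp2 (-4.95 ± 0.18). Ptprd reads cannot be told from those of B230208B08Rik on the other strand.

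Interferon-stimulated genes were nearly all higher in R172H. Of 46 tested, 45 were higher in R172H and 0 lower, against 32.4% and 33.8% of all genes, with a median log2 fold change of 4.51 (range 0.20 to 15.12) against -0.02 over all genes. All 45 had no overlap between the 3 and 3 libraries, against 69.1% of all genes. Fitted values of the 3 members at the floor in Y217C depend on the prior count, so the upper end of the range is no bound. The median was the same with these 3 members set to their bound. Isg20 was the exception, at 27.3, 24 and 23.5 CPM in R172H and 24.2, 19.9 and 21 CPM in Y217C (adjusted p = 0.086). Summed over the 46 genes, the R172H libraries held 3797 to 5170.5 CPM and the Y217C libraries 427 to 477 CPM, while the KO libraries held 344 to 355 CPM and the Y202C libraries 973 to 1205 CPM. By this sum the R172H line stood above the other 3 female lines, the KO line lay below the R172H line for 46 of 46 genes, and the Y202C line lay between the lines compared for 44. Replicate 1 was the highest R172H library for 44 of the 46 genes, and without it 45 were higher and 0 lower.

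The members spanned sensor, signal and effector steps. Stat2, whose product carries the interferon signal to the nucleus, stood at 252, 222 and 201 CPM in R172H and 31.9, 31.1 and 29.4 CPM in Y217C, a log2 fold change of 2.87 ± 0.09 (adjusted p = 1.41e-18). Its partner Irf9 (3.10 ± 0.10) was higher too, as was Irf7, the factor that amplifies interferon production, at 102, 77.2 and 78.6 CPM against 2.34, 0.966 and 0.975 CPM (5.88 ± 0.30). Isg15, a ubiquitin-like modifier, stood at 299.5, 222 and 229 CPM in R172H and 6.14, 4.90 and 3.99 CPM in Y217C, a log2 fold change of 5.63 ± 0.22 (adjusted p = 1.02e-16). In each of these genes the lowest R172H library exceeded the highest Y217C library several fold. Usp18, which removes Isg15 and damps the receptor, changed by 7.81 ± 0.28. Among antiviral effectors, Ifit1, which binds viral RNA ends, changed by 5.07 ± 0.22, Mx1 by 6.91 ± 0.34 and Rsad2 by 7.26 ± 0.34. Oas1a, a double-stranded RNA sensor, stood at 64.7, 45.3 and 42 CPM against 0 in each Y217C library, at least 1292-fold higher. Genes of the Oas, Ifit and Mx families have close copies, and reads shared between copies may be divided or dropped, so single values within a family are less certain than the family's direction.

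Promoters of 4 of these genes are shown because they carry the GAAA repeat of the interferon program close to the start site. The windows are the 140 bases before the RefSeq start on GRCm38.p6, each printed 5′ to 3′ on the gene's own strand, with matches to GAAANNGAAA on either strand in capitals, where matches may overlap one another. They lie at chr19:34640749-34640888 on the plus strand for Ifit1, and on the minus strand at chr4:156200819-156200958 for Isg15, chr5:120907526-120907665 for Oas1a and chr12:26456453-26456592 for Rsad2.
Ifit1: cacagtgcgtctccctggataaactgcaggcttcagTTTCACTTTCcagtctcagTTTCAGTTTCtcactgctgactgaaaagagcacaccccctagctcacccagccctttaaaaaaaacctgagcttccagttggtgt
Isg15: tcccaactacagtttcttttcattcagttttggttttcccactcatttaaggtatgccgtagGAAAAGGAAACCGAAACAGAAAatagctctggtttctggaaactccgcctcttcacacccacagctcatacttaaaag
Oas1a: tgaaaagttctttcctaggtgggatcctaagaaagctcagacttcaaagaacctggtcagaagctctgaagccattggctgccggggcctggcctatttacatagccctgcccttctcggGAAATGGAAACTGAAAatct
Rsad2: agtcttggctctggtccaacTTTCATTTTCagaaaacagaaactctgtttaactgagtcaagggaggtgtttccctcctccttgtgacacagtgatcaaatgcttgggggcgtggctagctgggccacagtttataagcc

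Ifit1 held matches beginning 104 and 85 bases before the start, Isg15 held overlapping matches at 78, 72 and 66 bases, Oas1a at 20 and 14 bases, and Rsad2 at 120 bases. Over windows of 250 bases before the start, 17 of 41 windows of interferon-stimulated genes held GAAANNGAAA (41.5%, from 34 genes with an entry), against 2.98% of 32851 windows of all genes and 2.67% of 13206 windows of genes tested. For MHC class I and antigen processing genes it was 3 of 21 (14.3%). A match describes these letters only and says nothing of binding.

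MHC class I and antigen processing genes, which load and show peptides to T cells, moved to the same side with smaller sizes. Of 20 tested, 17 were higher and 0 lower, against 32.4% and 33.8% of all genes. Their median was 1.61, against -0.02 over all genes. H2-D1, a class I heavy chain gene, stood at 229, 179 and 183 CPM in R172H and 44.3, 37.6 and 37.5 CPM in Y217C (2.31 ± 0.10). H2-K1 changed by 1.52 ± 0.11, the peptide transporter gene Tap1 by 3.64 ± 0.17, the class I transactivator gene Nlrc5 by 3.92 ± 0.16 and the light chain gene B2m by 0.76 ± 0.08. Class I genes are near-identical copies, and Tap1 overlaps Psmb9 on the other strand, so their separate values are uncertain. The class Ib gene H2-M3 and the chaperone genes Calr and Pdia3 did not pass the threshold.

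Chemokine and cytokine genes rose in R172H more often than they fell: 10 of 16 chemokine genes were higher and 4 lower, and 11 of 14 cytokine and receptor genes were higher and 0 lower, against 32.4% and 33.8% of all genes. Il1rn, the natural antagonist of interleukin-1, stood at 1150.3, 1077 and 999 CPM in R172H and 0.211, 0.305 and 0.236 CPM in Y217C, a log2 fold change of 12.06 ± 0.13 (adjusted p = 4.22e-27). The KO line held 0.0911 ± 0.0538 CPM and the Y202C line 88.9 ± 3.06 CPM. The R172H line was thus the highest of the 4 female lines, with the Y202C line next. Cxcl5, a neutrophil attractant, stood at 329.8, 362 and 357 CPM against 4.25, 3.27 and 2.67 CPM (6.67 ± 0.17), and Cxcl14 changed by 8.94 ± 0.19. The interferon-responsive Cxcl10 (4.14 ± 0.14), the monocyte attractant Ccl2 (2.92 ± 0.11), Cxcl1 (3.86 ± 0.14) and Il6 (2.97 ± 0.23) were higher as well. Tnfsf11, which encodes the osteoclast factor RANKL, changed by 6.09 ± 0.31, and Il1rl1, the interleukin-33 receptor gene, by 4.32 ± 0.08. Cxcl3 went the other way, at 0.117, 0.203 and 0.244 CPM in R172H and 5.61, 4.12 and 4.49 CPM in Y217C (-4.62 ± 0.39), although it lies in the same cluster of chemokine genes as Cxcl5 and Cxcl1. Acute-phase and complement genes of the reactive astrocyte list, of which 20 of 31 were higher and 7 lower, included C3 at 213, 183 and 167 CPM against 1.47, 0.877 and 1.23 CPM (7.29 ± 0.19), Hp (8.32 ± 0.25), Saa3 (6.70 ± 0.45) and Lcn2 (4.44 ± 0.23).

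**Figure D3:**
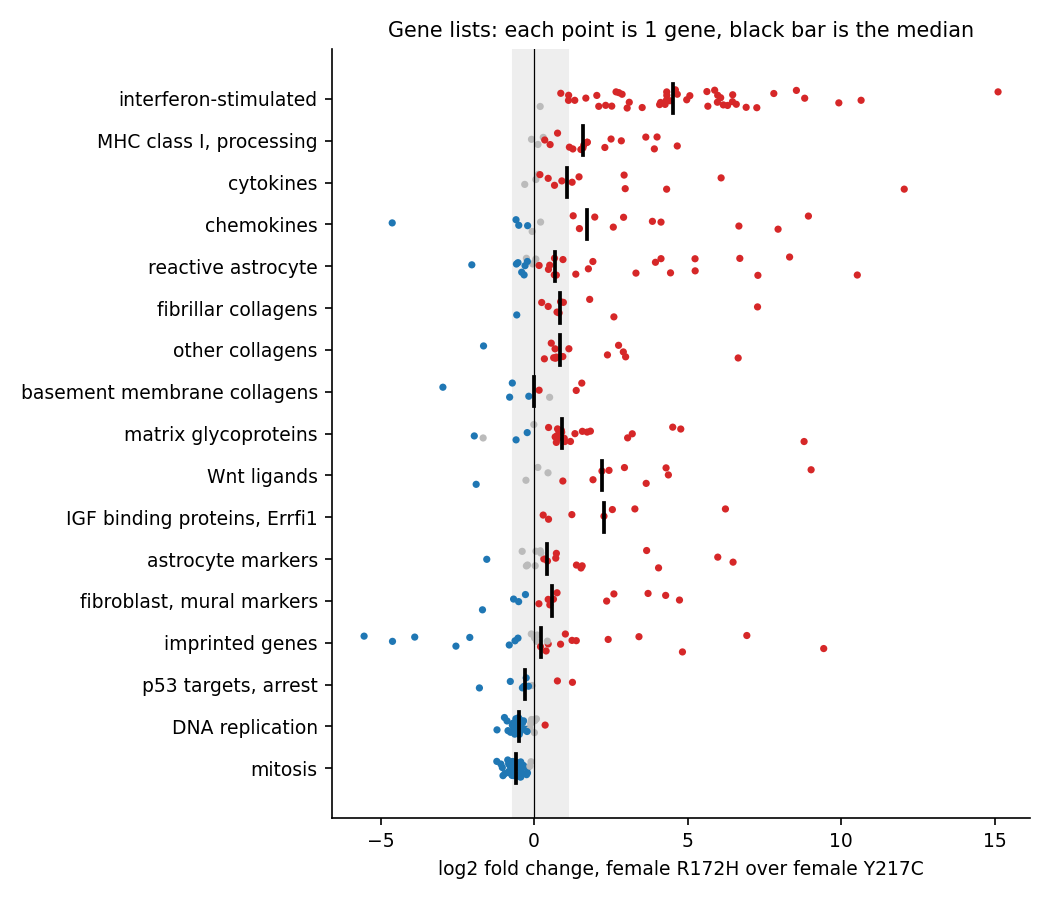
Each point is 1 gene of a list, placed by its log2 fold change (R172H over Y217C), and the black bar is the median of the list. The median is 4.51 for interferon-stimulated genes and -0.60 for mitosis genes, with the lists for matrix and Wnt genes spread mostly above 0.

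Genes of the extracellular matrix were mostly higher in R172H, from the most abundant collagens to low-expressed proteases. Of 10 fibrillar collagen genes 9 were higher and 1 lower (median 0.84), of 14 other non-basement-membrane collagen genes 13 were higher and 1 lower, and of 26 matrix glycoprotein genes 21 were higher and 3 lower (median 0.90), against 32.4% and 33.8% of all genes. The 8 basement membrane collagen genes were divided, with 3 higher and 4 lower. Col1a1, the main chain of type I collagen, stood at 24023, 20434 and 20870.5 CPM in R172H and 13139, 12791 and 12970.3 CPM in Y217C, a log2 fold change of 0.75 ± 0.08 (adjusted p = 8.57e-09) and the largest gain in CPM of any protein-coding gene. Its partner chain gene Col1a2 changed by 0.46 ± 0.09, Col3a1, of type III fibrils, by 2.60 ± 0.09, and Col2a1, of cartilage, by 7.28 ± 0.13. The exceptions were Col11a2 (-0.56 ± 0.10) and Col7a1, of the anchoring fibrils below epithelia (-1.65 ± 0.07). Col4a1, a chain of the basement membrane network, was lower (-0.80 ± 0.06), and its reads overlap those of Col4a2 on the other strand at their shared promoter.

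Among glycoproteins, Postn, a matricellular protein of fibrous and healing tissue, stood at 2303, 1938 and 1646 CPM in R172H and 82.2, 65.5 and 66.7 CPM in Y217C, a log2 fold change of 4.78 ± 0.16 (adjusted p = 5.13e-18). The KO line was at the Y217C level (85.7 ± 6.39 CPM) and the Y202C line between the 2 lines (981 ± 81.7 CPM). Fibronectin, Fn1, changed by 0.81 ± 0.05, Sparc by 0.89 ± 0.06, Comp by 4.52 ± 0.25 and Tnn, which had 4 counts or fewer in each Y217C library, by 8.80 ± 0.43. Thbs1, an activator of latent TGF-beta, was the largest loss in CPM, at 2165, 1861 and 1774 CPM in R172H and 7826, 7302 and 7248 CPM in Y217C (-1.95 ± 0.08); reads of Gm29233 on the other strand cannot be told from it. Fbln2 was lower as well (-0.59 ± 0.08). Of 21 proteoglycan and crosslinking enzyme genes 13 were higher and 2 lower (61.9% and 9.52%, against 32.4% and 33.8% of all genes). The small leucine-rich proteoglycan genes Lum (4.74 ± 0.25) and Dcn (3.71 ± 0.17) were among the higher.

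Of 30 matrix protease genes 18 were higher and 10 lower (60.0% and 33.3%, against 32.4% and 33.8% of all genes), so the share lower was near that of all genes. Mmp13 (5.34 ± 0.51), Mmp9 (5.0 ± 0.45) and Adamts15 (9.16 ± 0.40, with 4 counts or fewer in each Y217C library) were higher from low levels. Of 7 protease inhibitor genes 6 were higher. Serpine2, a thrombin and plasmin inhibitor, stood at 460.0, 389 and 381 CPM in R172H and 1.42, 1.16 and 1.43 CPM in Y217C (8.26 ± 0.14), and Timp3, which blocks metalloproteases, changed by 2.69 ± 0.09.

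Wnt genes were more often higher than lower in R172H in the ligand list, the receptor list and the list that joins inhibitors and targets. Of 13 ligand genes 9 were higher and 1 lower (median 2.21), of 14 receptor genes 11 and 2 (median 0.34), and of 16 inhibitor and target genes 11 and 4 (median 1.41), against 32.4% and 33.8% of all genes. Wnt5a, a ligand of the noncanonical branch, stood at 103, 92.9 and 88.9 CPM in R172H and 18.8, 21.1 and 21.5 CPM in Y217C, a log2 fold change of 2.21 ± 0.07 (adjusted p = 1.27e-18). It lies on chromosome 14, where the median of all genes was 0.71, and the part of that shift in its value was not tested. Wnt10a changed by 9.03 ± 0.26, Wnt16 by 4.38 ± 0.29, Wnt6 by 4.30 ± 0.27 and Wnt4 by 3.65 ± 0.31, whereas Wnt7b was lower (-1.89 ± 0.30). The secreted antagonist genes were among the larger: Sfrp2 stood at 1830.0, 1421 and 1301 CPM in R172H and 39, 32.9 and 29.2 CPM in Y217C (5.49 ± 0.22), and Sfrp1 changed by 4.91 ± 0.11. Among readouts of the beta-catenin branch, Axin2 missed the threshold (0.36 ± 0.17, adjusted p = 0.0734) though it passed with DESeq2, and the effector genes Tcf7 (-2.02 ± 0.09) and Lef1 (-0.34 ± 0.08) were lower.

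Growth factor genes lay on both sides. Of 7 FGF ligand genes 3 were higher and 1 lower, and of 14 FGF receptor and feedback genes 9 and 1. Of 17 ligand genes of the PDGF, EGF and IGF list 8 were higher and 5 lower (47.1% and 29.4%, against 32.4% and 33.8% of all genes). Its 14 receptor genes, with 5 higher and 4 lower (35.7% and 28.6%), lay near the shares of all genes. Fgf2 stood at 3.82, 3.27 and 3.80 CPM in R172H and 0.905, 0.889 and 1.12 CPM in Y217C (1.91 ± 0.13), and Nudt6, its antisense neighbour, cannot be told from it without strand. The PDGF receptor gene Pdgfra changed by 4.29 ± 0.13. Among genes of EGF signalling, lower values were seen for the receptor gene Egfr, at -1.38 ± 0.07 and for the ligand genes Tgfa, at -3.49 ± 0.22 and Hbegf, at -1.11 ± 0.11. All 7 genes of the binding protein list, IGF-binding proteins and the EGF receptor inhibitor gene Errfi1, were higher, with Igfbp2 at 1279, 1101 and 1093 CPM in R172H and 16.6, 15.2 and 14.3 CPM in Y217C (6.23 ± 0.14). In the BMP branch the ligand gene Bmp4, also on chromosome 14, changed by 2.35 ± 0.12, and the target genes Id1, Id2 and Id4 by 2.16 ± 0.12, 3.17 ± 0.12 and 4.06 ± 0.12. Inhba, the activin chain gene, was lower (-1.72 ± 0.09).

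Cell cycle genes were lower in R172H, together and by small amounts. Of 40 mitosis genes 0 were higher and 38 lower, against 33.8% of all genes called lower, with a median of -0.60 (range -1.21 to -0.10), and of 39 DNA replication genes 1 was higher and 30 lower (median -0.48). Summed over the 40 mitosis genes, the R172H libraries held 2539 to 3067 CPM, the Y217C libraries 4037 to 4709.8 CPM and the KO libraries 4228 to 4515 CPM. The Y202C libraries held 2721 to 3046 CPM. The KO line thus lay with the Y217C line, above R172H for 39 of 40 genes, and the summed level of the Y202C line lay within the range of R172H. Kif23, a kinesin of the cleavage furrow, stood at 62.7, 72.5 and 78 CPM in R172H and 149.6, 175 and 169.9 CPM in Y217C (-1.21 ± 0.08, adjusted p = 3.25e-12). Bub1, a kinase of the spindle checkpoint, stood at 27.9, 35.2 and 35 CPM against 57.3, 76.4 and 74.1 CPM (-1.08 ± 0.12), and the proliferation marker Mki67 at 209, 265 and 280.2 CPM against 375, 493 and 499.7 CPM (-0.86 ± 0.14). Replicate 1 was the lowest library of its line for 38 of the 40 genes in R172H and for 34 in Y217C, so that Mki67 in R172H replicates 2 and 3 lay closer to Y217C replicate 1. Without R172H replicate 1, 36 of the 40 were lower and 0 higher. In its growth assay the study reports more growth of female R172H than of female KO cells, and slower growth of female Y217C than of KO cells. How these RNA levels relate to growth was not tested.

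The ribonucleotide reductase gene Rrm2 changed by -1.21 ± 0.11, and Myc, a driver of growth, by -0.98 ± 0.06. Ccnd1, which encodes cyclin D1, was slightly lower (-0.27 ± 0.05). Of 10 genes for inhibitors of the cycle 2 were higher and 4 lower, near the shares of all genes (32.4% and 33.8%). Cdkn1c, an imprinted gene for the p57 inhibitor, stood at 16.5, 14.5 and 14.6 CPM in R172H and 260.2, 208 and 207 CPM in Y217C (-3.89 ± 0.14, adjusted p = 1.48e-17), and Cdkn2b changed by -0.57 ± 0.08. The growth inhibitor with the largest fall was thus lower in the line where mitosis genes were lower too, and reads of Gm44732 on the other strand cannot be told from it.

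Promoters of Bub1 and Kif23 are shown because CCAAT, the box bound by NF-Y, is common near the start of mitosis genes. They are the 140 bases before the start on the minus strand, at chr2:127831860-127831999 for Bub1 and chr9:61946800-61946939 for Kif23, with CCAAT on either strand in capitals.
Bub1: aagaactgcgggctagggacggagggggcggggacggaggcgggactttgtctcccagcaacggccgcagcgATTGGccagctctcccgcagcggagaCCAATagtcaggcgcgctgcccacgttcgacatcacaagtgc
Kif23: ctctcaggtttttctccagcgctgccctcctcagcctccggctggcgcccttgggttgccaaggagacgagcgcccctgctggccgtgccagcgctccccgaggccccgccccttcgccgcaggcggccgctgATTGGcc

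Bub1 held a match 68 and another 42 bases before the start, and Kif23 one at 7 bases. Over 250 bases before the start, 27 of 36 mitosis gene windows held CCAAT (75.0%), as did 21 of 36 of DNA replication genes (58.3%), 15 of 21 of MHC class I and processing genes (71.4%), 34.1% of interferon-stimulated genes and 33.8% of all windows. The box was thus common both in a list that was lower and in one that was higher in R172H.

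The labelled cell type was checked against markers. Of 20 astrocyte markers 19 were in the table, and Gfap, the classical filament of astrocytes, was read at no more than 0.103 CPM in any of the 6 libraries, with Aqp4, the water channel of astrocyte endfeet, at the floor in both lines. Of the 19, 11 were higher in R172H and 1 lower, against 32.4% and 33.8% of all genes. Slc1a3, the glutamate transporter GLAST, stood at 287, 285 and 271 CPM in R172H and 3.24, 3.10 and 3.07 CPM in Y217C, a log2 fold change of 6.48 ± 0.13 (adjusted p = 4.02e-22). Aldh1l1, an enzyme of folate metabolism, changed by 5.98 ± 0.20, Clu by 3.67 ± 0.16 and the glial factor gene Sox9 by 0.73 ± 0.07. Acsbg1, the 1 member called lower, changed by -1.54, and 7 of the 19 did not pass the threshold. Some astrocyte genes thus had more RNA in R172H while the defining Gfap and Aqp4 were near 0 in both lines. The study assessed astrocyte purity by GFAP immunofluorescence, which it describes before the making of the mutant lines. That staining reads protein, so it and the RNA of the lines compared here are unlike measures.

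Of 16 neural progenitor genes 4 were higher, 4 lower and 8 not past the threshold, no more than the 32.4% and 33.8% of all genes, and 5 of the 16 were at the floor in both lines. Ptprz1, a receptor phosphatase of glial progenitors, stood at 8.01, 7.92 and 6.92 CPM in R172H and 104, 101 and 106 CPM in Y217C, and the filament gene Nes at 93.2, 111 and 111 CPM against 231, 306 and 293 CPM (-1.40 ± 0.11). Msi1, an RNA-binding protein of stem cells, was lower (-2.44 ± 0.16), while Sox2 was low in R172H, at 1.02, 0.949 and 0.846 CPM, and at 0 in each Y217C library, at least 23.9-fold higher in R172H. Markers of other cell types were sparse: 2 of 10 microglia markers, 4 of 10 of the oligodendrocyte lineage, 4 of 10 of neurons and 5 of 8 of endothelium were in the table. Stmn2, a neuronal microtubule gene, was higher (4.91 ± 0.10) and Tubb3, a neuronal tubulin gene, lower (-1.53 ± 0.11).

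All 14 fibroblast and mural cell markers were in the table, 10 higher in R172H and 4 lower. These shares were 71.4% and 28.6%, against 32.4% and 33.8% of all genes, so the share lower was near that of all genes. With the 4 chromosomes whose medians shifted most left out, 8 markers remained, 7 higher and 1 lower. Summed, the 14 markers held 45932 to 53579 CPM in the R172H libraries, 29486 to 31199.9 CPM in the Y217C libraries and 27823 to 29830.5 CPM in the KO libraries. The Y202C libraries, at 38528.5 to 45334 CPM, lay between R172H and Y217C and just below R172H. The marker list holds Col1a1, Col1a2, Col3a1, Dcn, Lum and Pdgfra, so it shares members with the matrix lists above. Its part in the matrix result was not tested. Fibrillar collagen genes summed to similar levels, 46624.5 to 54022.8 CPM in R172H and 27944.5 to 29752.8 CPM in Y217C. The summed level of the markers thus mostly follows their collagen members. In bulk RNA, more cells of a kind and more RNA per cell cannot be told apart.

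Of 58 transcription factor genes of embryonic patterning 29 were higher, 19 lower and 10 not past the threshold (50.0% and 32.8%, against 32.4% and 33.8% of all genes). The median was 0.72, or 0.49 with the 5 genes at the floor in 1 line set to their bound. Of these, 21 were higher and 14 lower by 2-fold or more, against 10.8% and 4.79% of all genes. Among the 6 homeobox cluster genes of the list 2 were higher and 4 did not pass, and the other 52 held 27 higher and 19 lower. The 6 summed to only 5.97 to 7.05 CPM in the R172H libraries, and Hoxa4, Hoxa5 and Hoxa7 were at the floor in both lines. Without R172H replicate 1, 0 of the 6 were higher and 0 lower, and scaled by total counts 0 were higher and 1 lower. Irx2 stood at 56.2, 53 and 53.2 CPM in R172H and 0.0705, 0.203 and 0.103 CPM in Y217C (8.74 ± 0.15). Among the lower were factors known from the developing brain. Zic1 stood at 42.5, 43 and 41.2 CPM in R172H and 185, 178 and 190.1 CPM in Y217C (-2.13 ± 0.05), and Otx1 changed by -3.11 ± 0.12. For Zic1 the KO line (162 ± 1.69 CPM) lay nearer the Y217C line.

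Of 25 imprinted genes, which are read from 1 parental allele, 12 were higher and 8 lower (48.0% and 32.0%, against 32.4% and 33.8% of all genes), so the share lower was near that of all genes. Grb10, a growth factor receptor adaptor and brake on growth, stood at 168, 158 and 153 CPM in R172H and 0.211, 0.254 and 0.222 CPM in Y217C, a log2 fold change of 9.44 ± 0.11 (adjusted p = 4.22e-27). The KO line held 626 ± 4.10 CPM, above both, and the Y202C line 78.6 ± 5.29 CPM. The Y217C line was thus the one that stood apart for this gene. Dlk1 (6.93 ± 0.18), Mest (4.83 ± 0.10), Peg3 (3.42 ± 0.11) and Igf2 (1.38 ± 0.15) were higher, and besides Cdkn1c the imprinted Phlda2 (-4.61 ± 0.51), Cobl (-2.55 ± 0.08) and the long noncoding H19 (-2.09 ± 0.13) were lower. H19 and Igf2 lie side by side on chromosome 7 and moved in opposite directions here, though reads of H19 cannot be told from those of Gm27483 and Gm27786 on the other strand.

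Differences were not spread evenly over the chromosomes. The median log2 fold change was 0.71 on chromosome 14, where 77.6% of genes were called higher and 6.65% lower, and 0.42 on chromosome 1 and 0.31 on chromosome 15. It was -0.33 on chromosome 9 and -0.33 on chromosome 12, where 59.0% and 56.1% of genes were called lower. On the X chromosome it was -0.01. Set beside the female KO line over genes of at least 1 CPM, the chromosome 14 median was 0.25 in R172H and -0.46 in Y217C, and that of chromosome 1 was -0.04 in R172H and -0.49 in Y217C, these differences sharing the KO libraries. The part of these shifts in the results for single genes was not tested. With chromosomes 1, 9, 12 and 14 left out, 40 of 41 interferon-stimulated genes were higher and 33 of 34 mitosis genes lower, while Wnt ligand genes were 6 higher and 1 lower of 10.

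**Figure D4:**
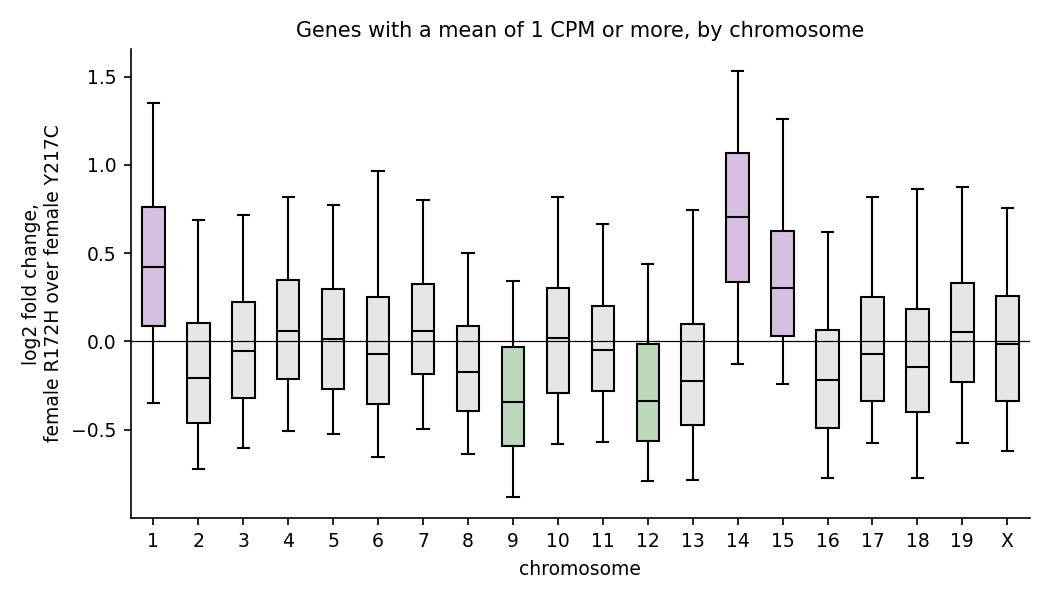
Boxes show the interquartile range of log2 fold changes (R172H over Y217C) of genes with a mean of 1 CPM or more on each chromosome, with the line at the median and whiskers from percentile 10 to percentile 90. Chromosomes 14, 1 and 15 (purple) sit above 0 and 9 and 12 (green) below.

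Among X-linked genes that the study names, Xist, the RNA of the inactive X, stood at 449.8, 522 and 591 CPM in R172H and 340.0, 415 and 473 CPM in Y217C. The ranges overlapped, at a log2 fold change of 0.35 ± 0.15 (adjusted p = 0.041) that did not pass with DESeq2, and Xist cannot be told from Tsix on the other strand. Kdm5c, which escapes inactivation, differed by 0.08 ± 0.04 (adjusted p = 0.0758). Eda, the ligand gene of ectodermal development, was lower at 1.08, 1.74 and 1.28 CPM against 6.95, 7.75 and 8.30 CPM (-2.49 ± 0.21).

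The same pair of mutations in the male culture shares no library with the female comparison, and the difference between the cultures was tested gene by gene. In the male culture 9943 genes were called (68.9%), 5078 higher in R172H (35.2%) and 4865 lower (33.7%). The difference between cultures passed the threshold for 10135 genes (70.3%), and 9986 of these were above the floor in all 4 lines. Of 6907 genes called in both cultures, 2760 went the same way, and across 14427 genes, which are no independent replicates, the log2 fold changes of the cultures had a correlation of -0.14. In the male culture 15 of the 46 interferon-stimulated genes were higher and 12 lower (median 0.06), and Stat2 stood at 27.7 ± 2.35 CPM in R172H and 28 ± 0.814 CPM in Y217C (SD, n = 3). For Stat2 the difference between cultures was 2.89 ± 0.12 on the log2 scale (adjusted p = 3.37e-16), and neither male line reached the level of the female R172H line. Of the 40 mitosis genes 15 were higher and 4 lower in male R172H. Fibrillar collagen genes were 8 higher and 2 lower there, and matrix glycoprotein genes 11 higher and 14 lower.

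Several leading genes had the opposite direction in the male culture, as had most genes called in both cultures, of which 2760 of 6907 went the same way. Ptprz1 stood at 128 ± 8.29 CPM in male R172H and 0.942 ± 0.227 CPM in male Y217C, and the difference between cultures was -10.86 ± 0.18 (adjusted p = 5.45e-24). Cdkn1c stood at 84.6 ± 12.2 CPM in male R172H and 5.83 ± 1.17 CPM in male Y217C, with a difference of -7.75 ± 0.20. In both genes the lower line was R172H in the female and Y217C in the male culture. For all 12 of those largest falls male R172H lay above male Y217C, and the difference between cultures ran from -10.86 to -4.11. They were chosen for their female value, which is part of that difference, and no difference is given for the 12 largest rises. Among the astrocyte markers 0 of 19 were higher and 15 lower in male R172H, against 35.2% and 33.7% of all genes in that culture. Slc1a3 stood at 5.68 ± 0.682 CPM in male R172H against 106 ± 6.76 CPM in male Y217C, a difference between cultures of 10.70 ± 0.18. Trp53 itself was reversed too, at 2287 ± 80.2 CPM in male R172H and 1215 ± 29.5 CPM in male Y217C (-1.84 ± 0.08), so the line with more Trp53 RNA was Y217C in the female and R172H in the male culture. Fn1 went the same way in both, with a difference of 0.13 ± 0.08 (adjusted p = 0.132). For Tfap2b, at the floor in female Y217C, only levels can be set side by side: 1.81 ± 0.257 CPM in male R172H and 0.0214 ± 0.0193 CPM in male Y217C.

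**Figure D5:**
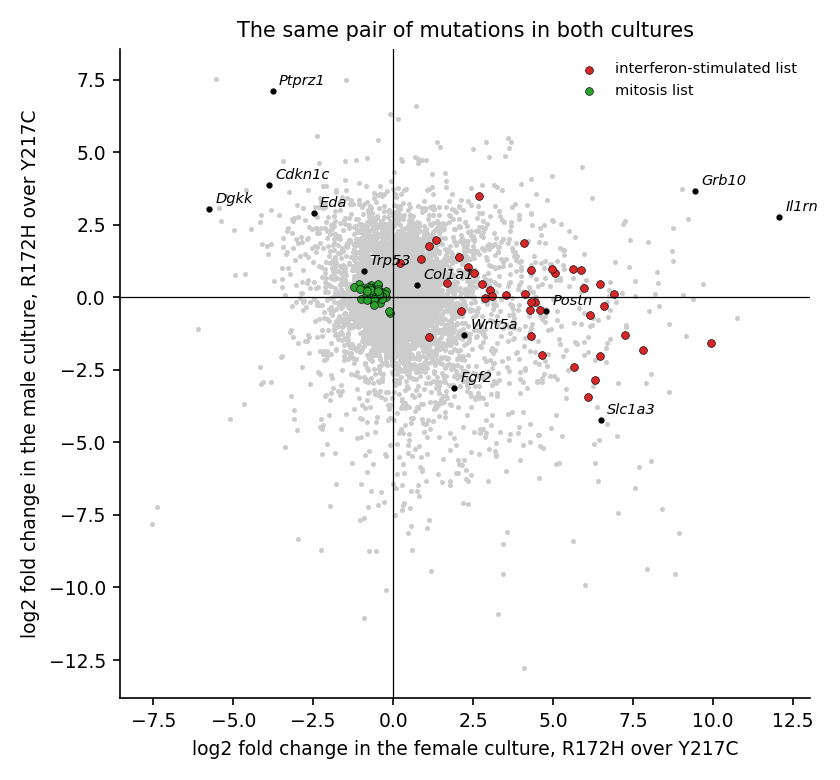
Each point is a gene above the floor in all 4 lines, with log2 fold change (R172H over Y217C) in the female culture across and in the male culture up; coloured points are members of the gene lists. Interferon-stimulated genes spread to the right near 0 on the male axis, and Ptprz1, Cdkn1c and Dgkk lie to the upper left.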

How the data were processed

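PolyA RNA of 24 libraries was sequenced. The authors aligned reads with STAR 2.5.1a to a mouse primary assembly (GRCm38), counted them per gene with featureCounts and deposited raw read counts for 14427 genes after removing low ones, and whether counting used strand is not given in the sources used here. Gene names and positions came from GENCODE on GRCm38 (14350 of 14427 IDs matched) and promoters from RefSeq. All columns belonged to the series.

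Counts as deposited were fitted with edgeR 4.0.16 in R 4.3.3 (TMM, above 1 CPM in at least 2 libraries, which removed 0 genes, 1 mean per line over 24 libraries, quasi-likelihood test, Benjamini-Hochberg, 0.05). SE is the absolute log2 fold change over the square root of F. Alternatives were limma 3.58.1, DESeq2 1.42.0, other scalings, filters, sample sets, a replicate block and leaving out each library. On counts simulated for this comparison over 13876 genes, 45 of 64 genes changed by 0.5 (log2) were called, 60 of 62 changed by 1, 66 of 66 changed by 2, and 8 of 13684 unchanged ones. The simulation changed few genes, around a mean that all lines shared. In the data 66.2% of genes were called, so these rates may not hold for them. The floor of 3 counts covers counting error only.

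The comparison, gene lists and named genes were chosen with earlier results of these data known, so lists are described by counts without a test. Genes named were the 12 largest rises and falls of protein-coding genes at 5 CPM or more without overlap, up to 4 members per list by size, all p53 regulators and markers, the 6 largest gains and losses in CPM, genes the study names, genes at the floor in 1 line, and the 3 largest noncoding rises and falls; 73 of 368 were added after their values were seen. The difference between cultures was fixed for the largest rises and falls. Some genes of these lists are not reported here. Figures were drawn with matplotlib 3.10.9 in Python 3.11.15.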

Additional observations from a re-analysis of the deposited data

Results flagged for a closer look

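Groups of 3 libraries are too small for a test of single outlying libraries, so the results listed here are those whose R172H against Y217C difference itself differed between the female and the male culture (female minus male, log2 scale, edgeR's quasi-likelihood test with Benjamini-Hochberg adjustment), among the genes named for size of change, for CPM gained or lost, or because the study names them. The rule fixed for this reading covered the genes with the largest changes, and it was extended to the other genes after their values were seen. Genes at the floor in any of the 4 lines have no usable value and were left out.

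All 12 of the largest female falls differed between the cultures: Ptprz1 by -10.86, Dgkk by -8.80, Ptprq by -8.73, Nptx1 by -8.51, Cdkn1c by -7.75, Crmp1 by -6.84, Myocd by -6.81, Rbfox1 by -5.72, Pbp2 by -5.71, Ptprd by -5.44, Cmah by -5.19 and F2rl1 by -4.11. Each was lower in female R172H and higher in male R172H than in the Y217C line of the same culture. These genes were chosen for their female value, which is part of the difference, so a negative difference was largely set by the choice. Over all genes the difference passed the threshold for 10135 of 14427 (70.3%). None of the 12 largest rises is among the results listed here.

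Among genes with large gains or losses in CPM, the difference was 5.26 for Postn, 1.81 for Col3a1, 1.19 for Sparc and 0.33 for Col1a1, and it was negative for Thbs1 (-2.62), Fbln2 (-2.51), Col1a2 (-1.99), Col4a1 (-1.89), Trp53 (-1.84), Eef1a1 (-0.76) and Hsp90ab1 (-0.53). Col1a1 and Col1a2, which encode chains of the same collagen, were thus on opposite sides, since the male difference was smaller than the female one for Col1a1 and larger for Col1a2. Among genes the study names, the difference was 5.03 for Fgf2, 3.52 for Wnt5a, -5.39 for Eda and -0.18 for Kdm5c. Mutation, sex, Trp53 level and the making of each line cannot be told apart in these differences.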

How the results depend on the processing

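The 3 counts over all genes stayed within 1.5 times their value in every alternative run. Genes past the threshold ranged from 8222 (adjusted p of 0.01) to 10081 (limma voomWithQualityWeights) around 9550, genes past it and 2-fold from 1919 to 2303 around 2254, and genes whose difference varied between cultures from 8941 to 10637 around 10135; leaving out 1 library gave 8917 to 9287, 2188 to 2303 and 9776 to 10068, where the line left with 2 libraries borrows its spread from the others. DESeq2 called 9619 genes. Scaling by total counts gave 4041 higher and 5794 lower against 4670 and 4880, and size factors 4898 and 4590. No filter gave the same counts, since the filter removed 0 genes. Same-numbered libraries correlated at 0.22, 0.05 and 0.18, below the level set for pairing in 1 of 3 pairs, although each library correlated best with its own number; with a replicate block the counts were 9438, 2247 and 10032, and 9639, 1980 and 9927 in the lines compared alone. Of 368 named genes 348 could be tested in all 17 settings, and 339 of these kept call and direction in each; over all 368, in the settings where each was tested, 353 did so, 10 lost a call in at least 1 (among them Acta2, Cdk1, Col10a1, Col25a1, Hoxa3, Lamb3, S100b, Sall1, Xist) and 5 gained one (Axin2, Isg20, Kdm5c, Ndrg2, Tmem119). Sall1 was the 1 gene that lost its direction in a setting: it rested on R172H replicate 1, without which its value was 0.00 (0.00 to 4.91 leaving out each library in turn). Chosen after seeing the data were the counts of each gene list under other scalings, which moved 9 of 320 counts by over 1.5 times, without 4 chromosomes, and without replicate 1. Depth limits genes near the floor of 3 counts, which gave no usable difference between cultures. The causes of these changes were not tested.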

Other observations

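Of 34 cadherin and protocadherin genes 20 were higher in R172H and 7 lower, and of 61 axon guidance genes 23 were higher and 25 lower, against 32.4% and 33.8% of all genes, so the axon guidance list lay near those shares. Slit3, a secreted guidance cue, stood at 619, 529 and 553 CPM in R172H and 5.37, 3.62 and 4.11 CPM in Y217C (7.01 ± 0.13), and Sema3d, a secreted semaphorin gene, at 17.3, 14.9 and 14 CPM against 108, 86.8 and 88.4 CPM (-2.62 ± 0.13). The 2 cues thus lay on opposite sides with no overlap between libraries. Cdh1, the epithelial cadherin gene, was higher at 2.98, 2.20 and 2.47 CPM against 0.129, 0.0889 and 0.0443 CPM, next to mesenchymal factors such as Prrx1 (2.35 ± 0.07) and Twist2 (2.02 ± 0.10, overlapping Gm29100 on the other strand) in a list of which 9 of 18 were higher and 4 lower.

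Of 50 lysosome genes 30 were higher and 10 lower (median 0.30), against 32.4% and 33.8% of all genes. In the male culture 8 of them were higher and 38 lower, against 35.2% and 33.7% of all genes there. The largest female rise was that of the collagen-degrading cathepsin gene Ctsk (4.08 ± 0.13). It stood at 25.6, 22.2 and 22.5 CPM in R172H and 1.23, 1.32 and 1.61 CPM in Y217C. Subunits of oxidative phosphorylation were 33 higher and 11 lower of 80, with a median of 0.10, and scaled by total counts 29 and 18 with a median of 0.02. Glycolysis genes were 6 higher and 7 lower of 22, and genes of sterol synthesis 7 and 8 of 24. Ldhb, which encodes a lactate dehydrogenase subunit, was the glycolysis gene with the largest change (2.17 ± 0.10). Unfolded protein response genes were 11 higher and 10 lower of 32, NRF2 targets 13 and 8 of 26, and YAP and TEAD targets 6 and 8 of 17, with Ccn2, whose reads cannot be told from those of Gm15270 on the other strand, at -1.22 ± 0.12 and Ankrd1 at -1.54 ± 0.11.

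Among genes that are not protein-coding, the largest falls past the criteria were 3300005D01Rik, at 0.827, 0.81 and 0.991 CPM in R172H and 10, 9.90 and 9.74 CPM in Y217C, Rn7sk (-2.20 ± 0.35) and H19. The largest rises included copies of interferon-stimulated families, with Mx2 at 6.16 ± 0.29, Oas1b at 5.66 ± 0.33 and Slfn10-ps at 4.21 ± 0.29, whose reads may be shared with their protein-coding relatives.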
